A study of Mus musculus with 16 samples.

Results

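The 38 genes described here encode the machinery that burns fatty acids and uses ketone bodies. They are the carnitine shuttle, the enzymes of mitochondrial and peroxisomal beta-oxidation, the electron transfer flavoprotein system, proteins of fatty acid uptake and storage, fasting-responsive regulators, and the enzymes that consume ketone bodies. They were picked by function and gene symbol by a rule that uses no measured value, though with earlier results of these data known, and all 38 were found among the 55414 gene IDs of the count table. Enough reads for a test were present for 35 of them. The other 3, Cpt1b, Bdh1 and Ppargc1a, had too few counts in every group.

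RNA was sequenced from 16 subcutaneous tumours grown from B6MyC-CaP, a mouse prostate cancer cell line derived from Hi-MYC transgenic mice on a C57BL/6 background. The cells were placed in male C57BL/6 mice aged 6 weeks, and each of the 4 groups had 4 tumours. ADF+ENZ mice went through cycles of 24 h without food and 24 h with free access to it, and were also given 20 mg/kg of enzalutamide, an androgen receptor antagonist, by daily gavage. ADF mice had the fasting cycles alone, ENZ mice ate freely and had the drug alone, and Vehicle mice ate freely without the drug. All tumours therefore came from 1 transplanted line that carries the MYC transgene, growing outside the prostate in hosts whose stroma and immune cells contribute RNA. The sources used here do not give whether tumours were collected on days with or without food. Nor do the labels state that each tumour came from its own mouse, so the p-values reflect only how far these samples spread, which may be partly technical.

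Fatty acids enter the mitochondrion as carnitine esters. Cpt1a or a related enzyme on the outer membrane forms the ester, the carrier Slc25a20 moves it inward, and Cpt2 on the inner membrane restores the acyl-CoA, which is then shortened in repeated rounds of dehydrogenation, hydration, oxidation and thiolysis. During fasting, free fatty acids and glucocorticoids rise in blood, and in liver and muscle the nuclear receptors of the PPAR family switch on many of these genes. The liver turns fatty acids into ketone bodies, which other tissues, and some tumours, take back into energy metabolism through Bdh1 and Oxct1.

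Counts assigned to genes were between 10072489 and 25505655 per library. Levels are given as CPM, counts scaled to library size by the TMM method, and differences as log2 fold changes from edgeR with their standard errors (SE). A gene was called changed at a Benjamini-Hochberg adjusted p under 0.05 over the 18946 genes tested. The ADF libraries stood apart in technical measures. Reads that fell in no annotated feature made up 32.9 ± 2.73% of reads in ADF, against 24.0 ± 2.05% in ADF+ENZ, 25.9 ± 1.45% in ENZ and 25.9 ± 2.25% in Vehicle (SD, n = 4 each), and the ADF libraries did not overlap the other 12. The ADF libraries were also below the other 12 in reads aligned to several places (4.10 to 5.03% of reads) and in reads ambiguous between genes (2.71 to 3.02%). These measures and the ADF group cannot be told apart. ADF+ENZ and ENZ libraries overlapped in the no-feature share but not in the ambiguous share (3.44 to 3.82% against 4.11 to 5.26%). Reads not aligned also separated ADF+ENZ (11.1 to 16.7%) from Vehicle (7.47 to 9.10%). ADF+ENZ replicate 3 had the fewest assigned counts, with 16.7% of its reads not aligned against 7.47 to 12.2% in the other libraries. Among markers of prostate epithelium, Krt8 and Krt18 were plentiful in all libraries (206 to 661 CPM and 61.4 to 235 CPM), Cdh1 was at 1.43 to 5.26 CPM, Epcam did not pass 0.808 CPM, and Krt5 and Krt14 did not pass 0.121 CPM. Pbsn, a prostate secretory gene, had no count in any library.

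With fasting, a few members rose or fell and most were not called. In ADF against Vehicle, 4 of the 35 tested members were called, 2 higher (Cpt1a and Ucp2) and 2 lower (Oxct1 and Acsl1), where 9.01% of all tested genes were called, 4.05% higher and 4.96% lower. The median log2 difference of the members was -0.07, against 0.01 for all genes. In ADF+ENZ against ENZ, which shares no library with that comparison, 3 members were called, Cpt1a and Ucp2 higher and Oxct1 lower, with a background of 1.09%, 0.813% higher and 0.274% lower. The median here was 0.11 for the members and -0.01 for all genes. The fasting difference had the same sign with and without the drug in 24 of the 35 genes, 14 of them positive and 10 negative. This is 68.6% of the members, against 49.8% of all tested genes.

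With both treatments, 7 of the 35 members were called against Vehicle, 5 higher (Cpt1a, Slc25a20, Eci2, Etfb and Ucp2) and 2 lower (Oxct1 and Acaa1a), where 12.5% of all genes were called, 5.97% higher and 6.53% lower. The median log2 difference of the members was 0.05, against 0.00 for all genes, and the values ran between -1.36 (Cd36) and 1.20 (Angptl4). The comparisons with Vehicle share its 4 libraries.

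**Figure D1:**
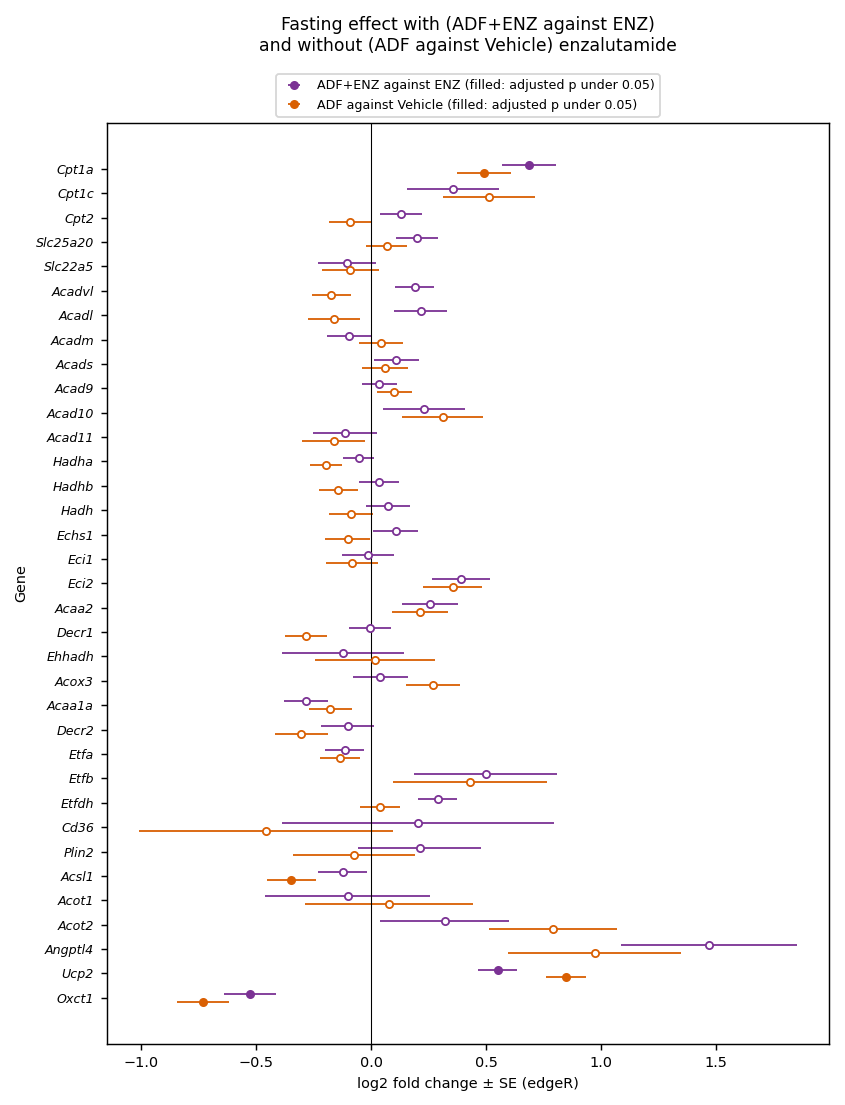
Log2 fold change ± SE (edgeR) for each of the 35 tested genes, for fasting with the drug (ADF+ENZ against ENZ) and without it (ADF against Vehicle). Angptl4, Cpt1a and Ucp2 sit to the right of 0 in both, Oxct1 to the left in both, and most other genes lie near 0.

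Only Cpt1a, Ucp2 and Oxct1 among the members were called under fasting both with and without the drug. Cpt1a and Ucp2 rose, and Oxct1 fell, in ADF against Vehicle, in ADF+ENZ against Vehicle and in ADF+ENZ against ENZ. The 250 bases upstream of the annotated start of these 3 genes are shown because these are the members that moved in all 3 comparisons. The sequences are RefSeq's for build GRCm38.p6, 5′ to 3′ on the plus strand, at chr19:3323051-3323300 for Cpt1a, chr7:100493108-100493357 for Ucp2 and chr15:4026178-4026427 for Oxct1. Capitals mark every match, on either strand, to 1 of 5 motifs.
Cpt1a: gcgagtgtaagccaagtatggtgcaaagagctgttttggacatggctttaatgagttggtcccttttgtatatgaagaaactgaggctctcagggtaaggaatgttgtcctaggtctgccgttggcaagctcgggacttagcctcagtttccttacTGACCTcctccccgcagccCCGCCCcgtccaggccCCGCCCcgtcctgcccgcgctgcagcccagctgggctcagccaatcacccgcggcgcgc
Ucp2: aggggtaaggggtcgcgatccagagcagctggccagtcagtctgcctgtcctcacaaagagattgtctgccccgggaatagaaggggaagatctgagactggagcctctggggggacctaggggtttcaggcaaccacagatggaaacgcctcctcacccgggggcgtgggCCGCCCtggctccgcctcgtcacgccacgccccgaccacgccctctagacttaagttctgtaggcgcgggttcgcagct
Oxct1: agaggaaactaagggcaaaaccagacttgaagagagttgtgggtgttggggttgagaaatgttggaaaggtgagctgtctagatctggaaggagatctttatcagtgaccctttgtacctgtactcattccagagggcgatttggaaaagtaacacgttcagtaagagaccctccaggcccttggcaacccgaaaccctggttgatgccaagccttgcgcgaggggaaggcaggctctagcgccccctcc
The motifs were the nuclear receptor half-site AGGTCA (in 14.0% of the 32851 promoter windows of the same reference cut to this length), the E-box CACGTG (6.02%), the GC box GGGCGG (32.7%), the forkhead core GTAAACA (3.17%) and the steroid receptor half-site AGAACA (16.1%). Cpt1a held 1 nuclear receptor half-site, read on the opposite strand as TGACCT, and 2 GC boxes. Ucp2 held 1 GC box, and the Oxct1 window had none of the 5. These matches are a description of letters in a short window, and none of the motifs overlapped another. GC content was 59.6%, 63.6% and 52.0% in the Cpt1a, Ucp2 and Oxct1 windows.

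Divided by annotated exon length, the most abundant members over the 16 tumours were Plin2, the main coat protein of lipid droplets, at 54.3 CPM per kb, Acadl, a long-chain acyl-CoA dehydrogenase, at 50.5, and Oxct1 at 44.1. Angptl4, Cpt1a and Ucp2 followed, as means over all libraries, at 34.3, 33.4 and 33.2 CPM per kb. The next genes, Etfa and Acaa2, were at 17.5 and 16.1 CPM per kb, below the 6 leading genes on this mean. The order changed between groups: Oxct1 had 37.1 CPM per kb in ADF+ENZ and 32.2 in ADF, below Angptl4, Cpt1a and Ucp2 in both, against 53.6 in ENZ, where it was the highest member, and 53.4 in Vehicle. Angptl4 had 51.8 CPM per kb in ADF+ENZ and 44.2 in ADF, below Plin2 and Acadl alone in each, against 18.8 in ENZ and 22.5 in Vehicle. At the low end, Ehhadh had 0.685 CPM per kb and Cpt1b, Bdh1 and Ppargc1a had 0.108, 0.0358 and 0.0175. Among the 3 carnitine palmitoyltransferase 1 genes, the level per kb of Cpt1c was 2.86 CPM, between those of Cpt1a and Cpt1b.

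**Figure D2:**
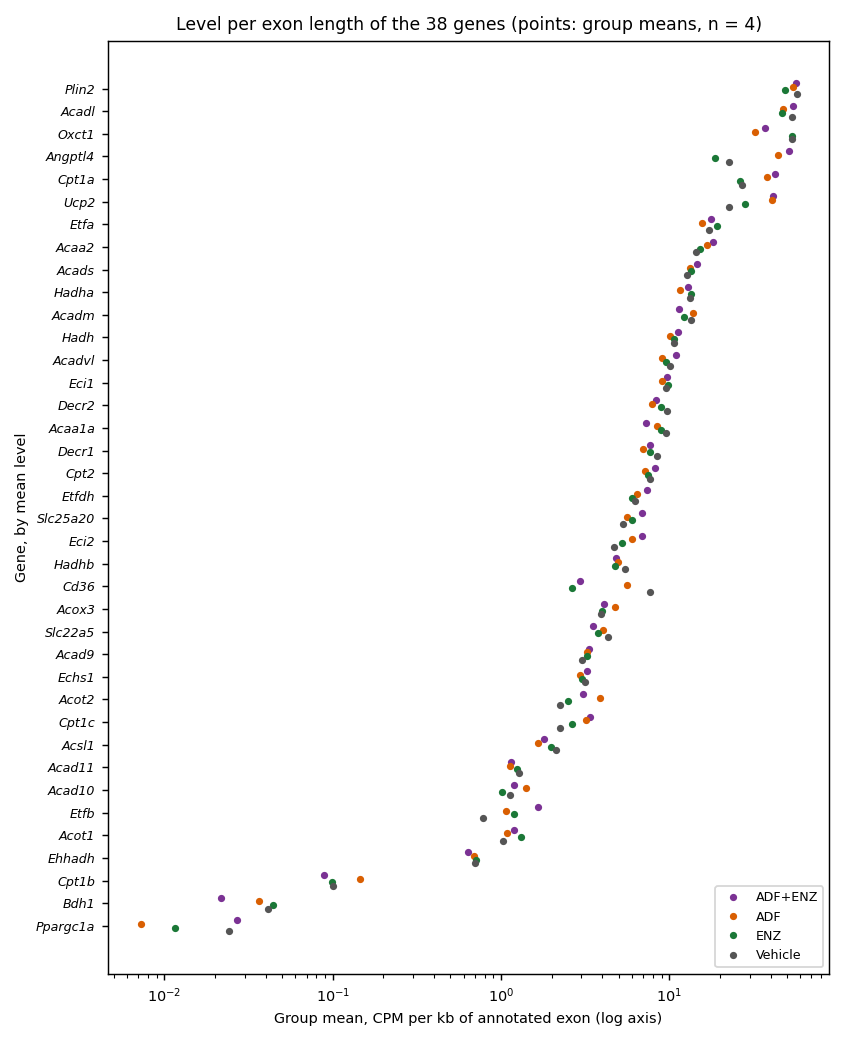
Group means of the 38 genes in CPM per kb of annotated exon (log axis), genes ordered by their mean over all libraries, with 1 point per group (n = 4 libraries each). Plin2 and Acadl are above 40 CPM per kb in all 4 groups, Oxct1 in ENZ and Vehicle, Angptl4 and Ucp2 in ADF+ENZ and ADF, and Cpt1a in ADF+ENZ. Cpt1b, Bdh1 and Ppargc1a lie at the bottom.

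Cpt1a, which makes the carnitine ester and controls the rate of fatty acid entry into mitochondria, was at 316, 305, 379.9 and 295 CPM in ADF+ENZ, 306, 266, 297 and 288 in ADF, 181, 242, 178 and 205 in ENZ, and 221, 180.3, 247 and 177 in Vehicle. Every fasted tumour was above every fed tumour, with or without the drug. The level in ADF was 1.40 times that in Vehicle (log2 0.49, SE 0.118, edgeR adjusted p = 0.0165), and that in ADF+ENZ was 1.61 times that in ENZ (log2 0.69, SE 0.118, edgeR adjusted p = 0.0107). Against Vehicle, the ADF+ENZ tumours gave log2 0.65, SE 0.118, edgeR adjusted p = 0.00187. The first of these calls was lost when the share of reads in no feature entered the model (log2 0.65, adjusted p = 0.264) and without Vehicle replicate 2 (adjusted p = 0.0589). The call for ADF+ENZ over ENZ did not hold without ENZ replicate 3 (adjusted p = 0.051) or ADF+ENZ replicate 3 (adjusted p = 0.0602). These tumours hold several cell types, and in bulk RNA fewer cells of a type and less RNA per cell cannot be told apart.

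Of the other shuttle genes, 1 was called in any comparison. This was Slc25a20, the carrier across the inner membrane, which was at 34.3, 33.4, 34.0 and 31.3 CPM in ADF+ENZ, 27.2, 28.2, 29.3 and 23.7 in ADF, 28.2, 32.2, 27.8 and 27.5 in ENZ, and 25.8, 27.9, 27.0 and 22.8 in Vehicle. All 4 ADF+ENZ tumours were above all Vehicle and all ADF tumours, while ADF and Vehicle overlapped. The difference was called in ADF+ENZ against Vehicle (log2 0.36, SE 0.0906, edgeR adjusted p = 0.0145), but not without the filter on low counts or without Vehicle replicate 4 (adjusted p = 0.0511 and 0.0548). It was also called in ADF+ENZ against ADF (log2 0.29, SE 0.0910, edgeR adjusted p = 0.0346). That call was lost in 4 other settings, with a log2 value of 0.05 once the no-feature share was in the model, and without ADF replicate 4 or any of ADF+ENZ replicates 1, 2 and 3 (adjusted p of 0.0203 to 1 over all alternatives). Cpt2, which restores acyl-CoA inside the mitochondrion, was at 19.1, 17.7, 21.7 and 19.9 CPM in ADF+ENZ, 17.3, 15.4, 19.1 and 16.8 in ADF, 17.4, 17.3, 18.4 and 18.3 in ENZ, and 18.8, 18.5, 18.3 and 17.4 in Vehicle. The groups overlapped, the log2 difference was -0.09 in ADF against Vehicle and 0.13 in ADF+ENZ against ENZ, and neither was called.

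Cpt1c, the brain-type isoform, ranged over 10.2 to 25.5 CPM, with log2 differences of 0.51 in ADF and 0.59 in ADF+ENZ against Vehicle that were not called (adjusted p = 0.113 and 0.0611). Both were called without Vehicle replicate 1 (adjusted p = 0.0324 and 0.0187), and DESeq2, or edgeR without ADF+ENZ replicate 2, called ADF+ENZ against Vehicle (adjusted p = 0.0333 and 0.0306). Slc22a5, which brings carnitine into the cell, ranged over 9.31 to 15.4 CPM and was not called in any comparison. Cpt1b, the muscle isoform, gave 18 counts in all over the 4 ADF+ENZ libraries, 28 in ADF, 22 in ENZ and 23 in Vehicle. Of its annotated exon bases, 81.4% are shared with the gene Gm44502 on the same strand, so these few counts cannot be assigned to it with certainty. Skeletal muscle markers summed to 2.87 to 32.4 CPM over the 16 libraries, and none of the 8 tested was called in any of the 6 comparisons.

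Ucp2, a carrier of the inner mitochondrial membrane whose gene is known to respond to fatty acids, was at 319, 284, 288 and 266 CPM in ADF+ENZ, 313, 287, 269.8 and 265 in ADF, 188, 215, 189 and 199 in ENZ, and 143, 168, 149.6 and 171 in Vehicle. The order was the same in all libraries: every fasted tumour was above every ENZ tumour, and every ENZ tumour was above every Vehicle tumour. The level in ADF was 1.80 times that in Vehicle (log2 0.85, SE 0.0855, edgeR adjusted p = 8.11e-05), and that in ADF+ENZ was 1.46 times that in ENZ (log2 0.55, SE 0.0852, edgeR adjusted p = 0.00698). ADF+ENZ against Vehicle gave log2 0.87, SE 0.0856, edgeR adjusted p = 9.28e-06. These 3 calls held in all 8 other settings and with each of the 8 libraries left out.

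Ucp2 is also abundant in macrophages, so their markers are given beside it. The 8 macrophage markers summed to 1121 to 1522 CPM in ADF+ENZ, 1262 to 1522 in ADF, 1204 to 1689 in ENZ and 1253 to 1741 in Vehicle. The group ranges overlapped. None of the 8 was called higher in ADF or in ADF+ENZ against Vehicle or in ADF+ENZ against ENZ. Cd68 was called lower in ADF against Vehicle (log2 -0.44, SE 0.122, edgeR adjusted p = 0.0312), and Adgre1 and Fcgr1 were called lower in ADF+ENZ against Vehicle (log2 -0.63 and -0.43). Other values went up without a call. Mrc1 averaged 109 CPM in ADF+ENZ and 128 in ADF, against 81.8 in ENZ and 102 in Vehicle. Cd68 gave log2 0.24 in ADF+ENZ against ENZ, and it was called higher in the interaction. The median log2 difference of the 8 markers was -0.08 in ADF against Vehicle and -0.16 in ADF+ENZ against ENZ. The part of macrophages in the Ucp2 differences was not tested.

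Angptl4, a secreted inhibitor of lipoprotein lipase and a target of PPAR receptors, was at 211, 169, 232 and 121 CPM in ADF+ENZ, 202, 151, 134 and 138 in ADF, 76.4, 108, 51.5 and 30.3 in ENZ, and 86.5, 51.4, 125 and 55.9 in Vehicle. Every ADF tumour was above every Vehicle tumour and every ADF+ENZ tumour above every ENZ tumour, while the highest Vehicle tumour, replicate 3, was above the lowest ADF+ENZ tumour, replicate 4. The differences were large (log2 0.97 in ADF against Vehicle, 1.47 in ADF+ENZ against ENZ and 1.20 in ADF+ENZ against Vehicle). None of them passed the edgeR threshold (adjusted p = 0.121, 0.0861 and 0.0551), and DESeq2 called ADF+ENZ against ENZ (adjusted p = 0.00602) and ADF+ENZ against Vehicle (adjusted p = 0.0164). In edgeR ADF+ENZ against Vehicle passed with the stricter filter and without Vehicle replicate 3 or ADF+ENZ replicate 4 (adjusted p = 0.0499, 0.0385 and 0.0453). The spread within groups was wide, and the highest ENZ tumour had over 3 times the level of the lowest.

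Ppargc1a encodes PGC-1alpha, the coactivator that drives mitochondrial genes in fasted liver and muscle. It gave 15 counts over the 4 ADF+ENZ libraries, 3 in ADF, 5 in ENZ and 11 in Vehicle, and no count in 5 of the 16 libraries. A count of 0 allows a level of up to 0.121 to 0.329 CPM, depending on the library (3 counts). It was too low to be tested at this depth.

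**Figure D3:**
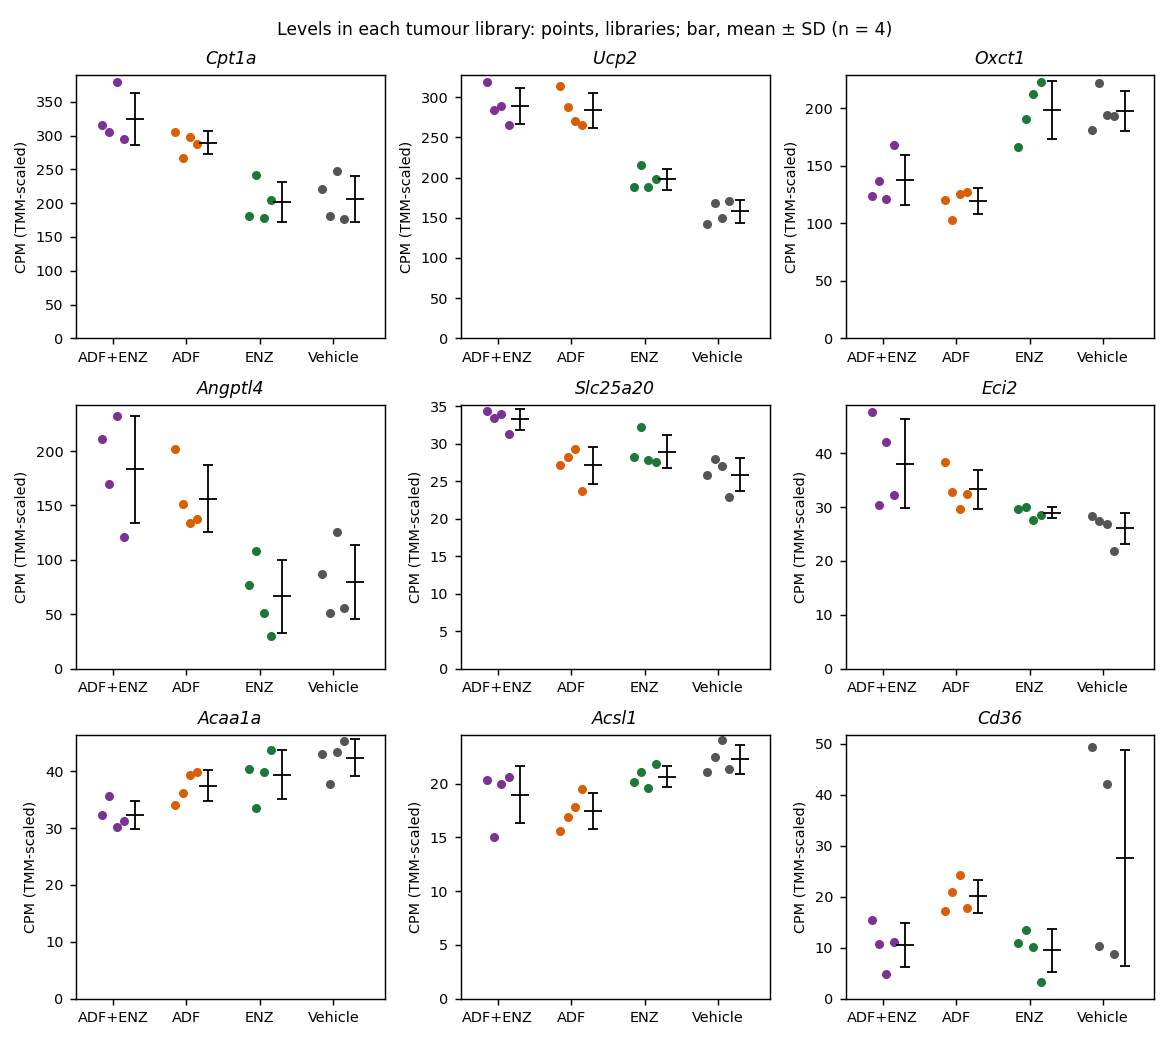
CPM (TMM-scaled) of single members in each tumour library, one point per library, with the mean and SD of each group (n = 4), groups from left to right ADF+ENZ, ADF, ENZ and Vehicle. Fasted tumours lie above fed tumours for Cpt1a and Ucp2 and below them for Oxct1, except that the highest ADF+ENZ tumour is level with the lowest ENZ tumour.

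Oxct1, succinyl-CoA:3-ketoacid CoA-transferase, is the enzyme that commits ketone bodies to use as fuel. It was at 124, 136, 121 and 168 CPM in ADF+ENZ, 120.5, 103, 125 and 128 in ADF, 167, 191, 212 and 223 in ENZ, and 181, 222, 194 and 193 in Vehicle. All 4 ADF tumours were below all Vehicle and all ENZ tumours. The highest ADF+ENZ tumour, at 168 CPM, lay just above the lowest ENZ tumour at 167, and all 4 ADF+ENZ tumours were below all Vehicle tumours. Oxct1 fell in ADF against Vehicle (log2 -0.73, SE 0.112, edgeR adjusted p = 0.000937), in ADF+ENZ against Vehicle (log2 -0.52, SE 0.112, edgeR adjusted p = 0.00563) and in ADF+ENZ against ENZ (log2 -0.53, SE 0.112, edgeR adjusted p = 0.029). The call against ENZ was lost under 2 other settings and without any of 5 libraries (ENZ replicates 2, 3 and 4 and ADF+ENZ replicates 1 and 3; adjusted p of 0.00189 to 0.129 over all alternatives), and that in ADF against Vehicle was lost with the no-feature share in the model (adjusted p = 0.249, log2 -0.67). Of its exon bases, 12.6% are shared with BC037032 on the opposite strand, and whether strand was used in counting is unknown here.

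Bdh1, which interconverts the main ketone bodies, gave 6 counts in ADF+ENZ, 8 in ADF, 12 in ENZ and 11 in Vehicle, and none in 2 of the 16 libraries. Of the other ketone genes listed for comparison, all 8 were tested. Slc16a1, a transporter of monocarboxylates including ketone bodies, was lower in ADF against Vehicle (log2 -0.43, adjusted p = 0.0498) and in ADF+ENZ against Vehicle (log2 -0.75, adjusted p = 0.00166). Aacs, which activates acetoacetate in the cytosol, was lower in the same comparisons (log2 -0.36 and -0.33).

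The acyl-CoA dehydrogenases carry out the first step of each round, and none of the 7 was called in ADF against Vehicle or in ADF+ENZ against ENZ. Acadvl, which takes the longest chains, was at 31.4, 29.7, 27.7 and 28.4 CPM in ADF+ENZ, 25.8, 22.9, 23.7 and 24.2 in ADF, 24.7, 27.4, 28.1 and 22.8 in ENZ, and 26.9, 27.9, 26.5 and 27.6 in Vehicle. All 4 ADF+ENZ tumours were above all ADF tumours, and this pair was called (log2 0.28, SE 0.0847, edgeR adjusted p = 0.0313), while Vehicle overlapped ADF+ENZ and was above ADF. The call was lost under 3 other settings and without any of 6 libraries, 3 of ADF (replicates 2, 3 and 4) and 3 of ADF+ENZ (replicates 1, 2 and 3), with an adjusted p of 0.0154 to 1 over all alternatives. Of Acadvl exon bases, 42.9% lie over Dvl2 on the opposite strand, so reads of both genes cannot be told apart if strand was not used. Acadm, the medium-chain enzyme, was at 46.2, 44.1, 44.2 and 44.4 CPM in ADF+ENZ, 57.6, 42.0, 55.9 and 60.9 in ADF, 48.0, 46.1, 46.1 and 51.2 in ENZ, and 56.0, 48.5, 54.5 and 50.7 in Vehicle. ADF was the most variable group, and the ADF+ENZ against ADF difference of log2 -0.27 was not called (adjusted p = 0.0573). Acadm was called in this pair by limma-voom, with the stricter filter, with the skeletal muscle covariate and without ADF replicate 2 (adjusted p = 0.0317, 0.0475, 0.0464 and 0.00877), and its log2 value was -0.10 with the no-feature share in the model.

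None of the other 5 dehydrogenases was called in any comparison. Acadl ranged over 81.5 to 134 CPM, Acads over 27.2 to 35.6, Acad9 over 23.4 to 28.6, Acad10 over 4.44 to 9.53 and Acad11 over 8.63 to 14.2 CPM. Across the 3 comparisons that contain fasting against feeding, log2 values of these 5 ran between -0.16 (Acad11 in ADF against Vehicle) and 0.31 (Acad10, same comparison).

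After the dehydrogenase step, Hadha, the alpha chain of the trifunctional protein that handles long-chain intermediates, was at 115, 108, 109.7 and 118 CPM in ADF+ENZ, 106, 104, 102 and 94.8 in ADF, 107, 121, 122 and 118 in ENZ, and 116, 122, 119.6 and 109 in Vehicle. The ADF tumours were the lowest group, with their highest tumour at 106 CPM below the lowest Vehicle tumour at 109. The difference of log2 -0.20 was not called by edgeR (adjusted p = 0.0761), and DESeq2 called it (adjusted p = 0.0263). Decr1, needed to degrade unsaturated fatty acids, was at 31.0, 29.6, 28.5 and 29.4 CPM in ADF+ENZ, 24.3, 27.9, 28.0 and 28.0 in ADF, 26.4, 28.0, 29.7 and 34.5 in ENZ, and 32.2, 34.6, 34.8 and 29.9 in Vehicle. In ADF against Vehicle, Decr1 gave log2 -0.28 (adjusted p = 0.0575) and the groups did not overlap. DESeq2 called it (adjusted p = 0.0321), as did edgeR without Vehicle replicate 4 (adjusted p = 0.0479).

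Eci2, an isomerase for unsaturated acyl-CoAs, was the only one of the 8 genes after the first step that was called. It was at 47.7, 30.3, 42.1 and 32.2 CPM in ADF+ENZ, 38.3, 32.9, 29.7 and 32.3 in ADF, 29.6, 30.0, 27.6 and 28.6 in ENZ, and 28.4, 27.3, 26.8 and 21.8 in Vehicle. All ADF+ENZ and all ADF tumours were above all Vehicle tumours. Eci2 rose in ADF+ENZ against Vehicle (log2 0.54, SE 0.127, edgeR adjusted p = 0.0101), which held in all 8 other settings and with each of the 8 libraries left out. The log2 value was 0.35 in ADF against Vehicle and 0.39 in ADF+ENZ against ENZ, neither called.

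The other 5 genes of this stage were Hadhb, Hadh, Echs1, Eci1 and Acaa2, with ranges of 28.2 to 37.6, 42.3 to 59.8, 21.1 to 30.1, 18.1 to 25.5 and 17.1 to 28.8 CPM. Acaa2, the mitochondrial thiolase that ends each round, had the largest difference of these, log2 0.33 in ADF+ENZ against Vehicle (adjusted p = 0.0804), and none of the 5 was called. Without Vehicle replicate 3, Acaa2 was called in that comparison (adjusted p = 0.0151).

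Of the 4 peroxisomal enzymes, which shorten very long and branched chains, none was called higher in any comparison. Acaa1a, the peroxisomal thiolase, was at 32.3, 35.7, 30.1 and 31.2 CPM in ADF+ENZ, 34.1, 36.2, 39.4 and 39.9 in ADF, 40.4, 33.4, 39.8 and 43.7 in ENZ, and 43.0, 37.8, 43.4 and 45.3 in Vehicle. All 4 ADF+ENZ tumours were below all Vehicle tumours, and it fell in ADF+ENZ against Vehicle (log2 -0.39, SE 0.0937, edgeR adjusted p = 0.0116), which held in all 8 settings and with each library left out. Its near-identical paralog Acaa1b had at most 0.242 CPM. Ehhadh, the bifunctional enzyme that PPAR-alpha induces strongly in fasted mouse liver, was at 1.55, 2.06, 1.53 and 2.47 CPM in ADF+ENZ, 1.68, 3.32, 1.42 and 1.86 in ADF, 2.42, 1.77, 1.80 and 2.49 in ENZ, and 2.32, 2.23, 2.16 and 1.60 in Vehicle. The groups overlapped, and the log2 differences were 0.02 in ADF against Vehicle and -0.12 in ADF+ENZ against ENZ. Acox3 and Decr2 ranged over 33.7 to 56.8 and 18.6 to 30.8 CPM and were not called.

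The electron transfer flavoprotein system passes electrons from the dehydrogenases to the respiratory chain. Etfdh, the oxidoreductase that hands them to ubiquinone, was at 59.7, 51.6, 56.9 and 52.5 CPM in ADF+ENZ, 54.7, 43.6, 48.2 and 47.5 in ADF, 41.2, 42.9, 47.3 and 48.8 in ENZ, and 48.1, 47.8, 49.0 and 43.9 in Vehicle. All 4 ADF+ENZ tumours were above all ENZ tumours, and the difference of log2 0.29 was not called (adjusted p = 0.103), while it was by DESeq2 and with the skeletal muscle covariate (adjusted p = 0.0363 and 0.0476). Etfb, the small subunit, was at 2.70, 1.53, 1.75 and 1.70 CPM in ADF+ENZ, 1.28, 0.829, 1.65 and 1.22 in ADF, 1.88, 1.64, 1.20 and 0.831 in ENZ, and 0.832, 0.572, 0.851 and 1.38 in Vehicle. All 4 ADF+ENZ tumours were above all Vehicle tumours. It was called in ADF+ENZ against Vehicle (log2 1.05, SE 0.320, edgeR adjusted p = 0.0367), and the call was lost without any of 5 libraries (Vehicle replicates 1, 2 and 3 and ADF+ENZ replicates 1 and 3) and in a fit of only the 2 groups compared, with an adjusted p of 0.0219 to 0.117 over all alternatives. These are 10 to 42 counts per library, and 58.2% of the exon bases are shared with other genes, the largest share with Gm45233 on the same strand, so the value is uncertain. Etfa, the large subunit, ranged over 27.8 to 39.1 CPM and was not called.

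Among genes of uptake, storage and acyl-CoA handling, 1 of 5 was called in any comparison, Acsl1. Cd36, a fatty acid transporter of adipocytes, macrophages and endothelium, was at 15.4, 10.8, 4.93 and 11.2 CPM in ADF+ENZ, 17.1, 21.0, 24.3 and 17.8 in ADF, 10.9, 13.4, 10.2 and 3.32 in ENZ, and 49.4, 10.3, 42.1 and 8.67 in Vehicle. The Vehicle tumours fell into a high pair (replicates 1 and 3) and a low pair (replicates 2 and 4). The ADF tumours lay between the pairs. The log2 differences of -1.57 in ENZ and -1.36 in ADF+ENZ against Vehicle were not called (adjusted p = 0.142 and 0.139). All ADF tumours were above all ADF+ENZ and all ENZ tumours in Cd36. The difference in ADF+ENZ against ADF was log2 -0.91 and was not called (edgeR adjusted p = 0.291). An edgeR fit of only the 2 groups compared called it (adjusted p = 0.0456). Its log2 value ran between -1.12 and -0.15 over all alternatives. Plin2, which coats lipid droplets, was at 214, 196, 218 and 169 CPM in ADF+ENZ, 211, 195, 201 and 155 in ADF, 142, 242, 168 and 136 in ENZ, and 211, 123, 328 and 140.5 in Vehicle. The same Vehicle replicates, 1 and 3, were the highest of that group, and no comparison was called.

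Acsl1, which activates long-chain fatty acids, was at 20.3, 15.1, 19.9 and 20.6 CPM in ADF+ENZ, 15.6, 16.9, 17.9 and 19.5 in ADF, 20.1, 21.1, 19.6 and 21.8 in ENZ, and 21.1, 22.5, 24.1 and 21.3 in Vehicle. All ADF tumours were below all Vehicle tumours, and it fell in ADF against Vehicle (log2 -0.35, SE 0.106, edgeR adjusted p = 0.0464). The call was lost under 3 other settings and without any of 7 of the 8 libraries, all but Vehicle replicate 1 (adjusted p of 0.0197 to 0.576 over all alternatives), and the log2 value was -0.12 in ADF+ENZ against ENZ. Acot1, a cytosolic thioesterase that releases fatty acids from CoA, was at 3.43, 8.43, 2.30 and 4.49 CPM in ADF+ENZ, 7.28, 4.38, 2.68 and 2.58 in ADF, 5.90, 6.21, 4.57 and 3.90 in ENZ, and 3.69, 4.23, 5.24 and 2.87 in Vehicle. Acot2, its mitochondrial relative, was at 5.64, 8.96, 5.81 and 6.51 CPM in ADF+ENZ, 13.9, 6.87, 5.83 and 7.53 in ADF, 6.26, 7.03, 4.81 and 3.82 in ENZ, and 5.59, 3.60, 6.81 and 3.76 in Vehicle. The groups of each overlapped and no comparison was called by edgeR. DESeq2 called Acot2 in ADF against Vehicle (adjusted p = 0.046). Acot1 and Acot2 are near-identical in sequence, and reads that match both may be lost or split between them.

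Adipocyte markers beside these genes were low. Their 9 genes summed to 10.3 to 26.7 CPM in ADF+ENZ, 25.7 to 33.9 in ADF, 14.3 to 35.2 in ENZ and 15.9 to 31.6 in Vehicle, most of it from Fabp4 and Lipe, and Adipoq did not pass 0.601 CPM. Lipe, the hormone-sensitive lipase also made in other cells, was called higher in ADF against Vehicle (log2 0.56, SE 0.148, edgeR adjusted p = 0.0252) and lower in ADF+ENZ against ADF (log2 -0.58, SE 0.149, edgeR adjusted p = 0.0153). The 8 endothelial markers summed to 261 to 563 CPM in ADF+ENZ, 428 to 582 in ADF, 335 to 677 in ENZ and 350.1 to 589 in Vehicle, and Tek and Emcn were called higher in ENZ against Vehicle (log2 0.85 and 0.57). The 7 fibroblast markers summed to 11805 to 13689 CPM in ADF+ENZ, 9156 to 12797 in ADF, 9678 to 10724 in ENZ and 11226 to 13014 in Vehicle. Every ADF+ENZ library was above every ENZ library in this sum, as was every Vehicle library, and the part of fibroblasts in the Cpt1a, Ucp2 and Oxct1 differences between ADF+ENZ and ENZ was not tested. Of the 7 markers, Dcn was called lower in ADF against Vehicle (log2 -0.43) and Pdgfra was called higher in ADF+ENZ against Vehicle and against ENZ (log2 0.61 and 0.72). The 6 T cell markers summed to 2.08 to 17.3 CPM and none was called. The part of adipocytes, endothelium and macrophages in the Cd36 and Plin2 values was not tested.

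The drug alone was compared in fed mice. In ENZ against Vehicle, 1 of the 35 members was called, Ucp2, higher (log2 0.32, SE 0.0852, edgeR adjusted p = 0.0316), with a background of 5.43% of all genes, 1.81% higher and 3.62% lower. An unadjusted p under 0.05 was found for 3 of 35 members (8.57%), against 20.1% of all genes. The median log2 difference was -0.03 for the members and 0.01 for all genes. The call was lost in a fit of only the 2 groups compared, with the skeletal muscle covariate, and without any of 5 libraries (Vehicle replicates 1 and 3 and ENZ replicates 2, 3 and 4), with an adjusted p of 0.00713 to 0.105 over all alternatives. Cpt1a and Oxct1 gave log2 values of -0.03 and 0.01 for the drug alone.

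Adding the drug to fasting called 2 members, Slc25a20 and Acadvl, both higher in ADF+ENZ than in ADF, where 16.3% of all genes were called, 8.72% higher and 7.54% lower. The members' median was 0.12, against -0.02 for all genes, and 26 of the 35 were positive. With the no-feature share in the model, no gene of the whole table was called in this pair. The level of Cpt1a differed by log2 0.16 (adjusted p = 0.343), Ucp2 by 0.03 (adjusted p = 0.843) and Oxct1 by 0.21 (adjusted p = 0.2).

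Whether fasting acted differently with the drug than without it was asked by the interaction, the fasting difference under the drug minus that without it. No member was called by edgeR, against 3.1% of all genes (2.18% positive and 0.918% negative), and 5 of 35 members (14.3%) had an unadjusted p under 0.05, against 21.3% of all genes. DESeq2 called 1, Acadvl (adjusted p = 0.04), for which edgeR gave log2 0.36 with an adjusted p of 0.0937. The interaction was 0.20 ± 0.166 for Cpt1a, -0.30 ± 0.120 for Ucp2 and 0.20 ± 0.158 for Oxct1 on the log2 scale (± SE). A p above the threshold does not show that the fasting differences were equal.

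**Figure D4:**
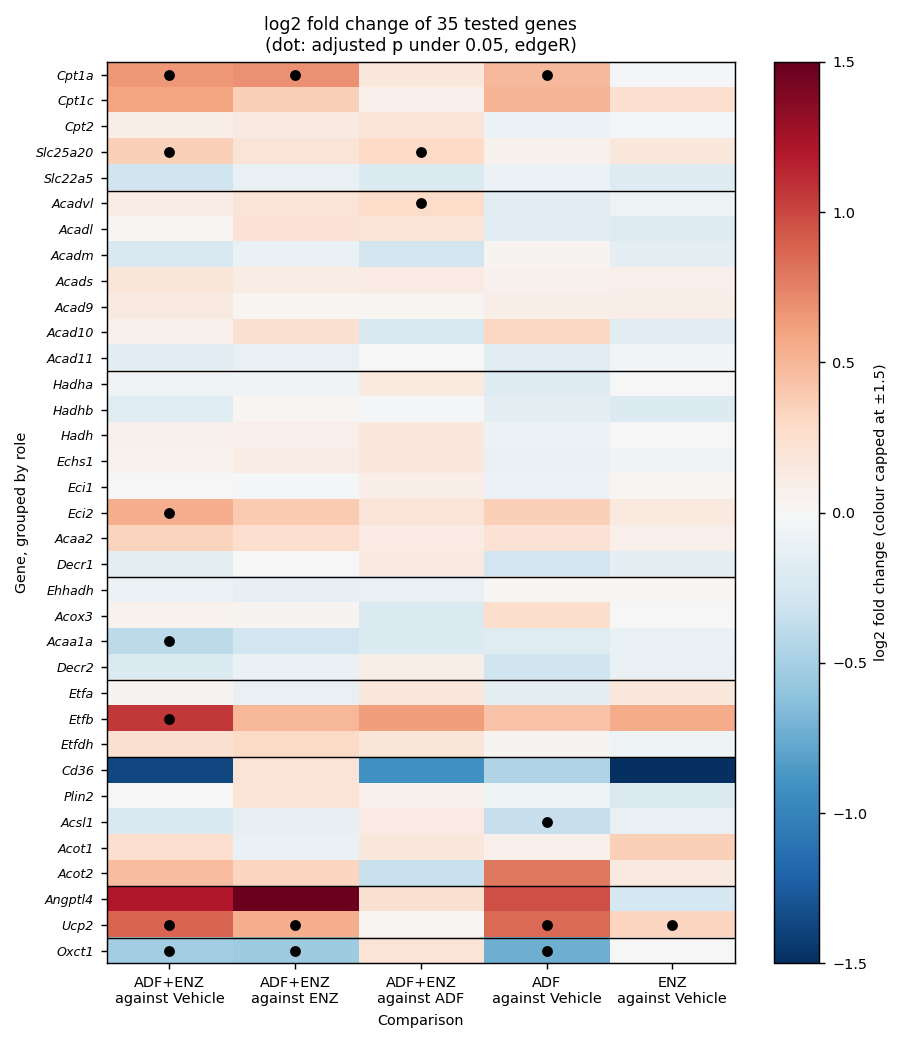
Log2 fold change of the 35 tested genes, grouped by role, in the 5 pairwise comparisons, with a dot where the edgeR adjusted p is under 0.05 and colour capped at ±1.5. Cpt1a, Ucp2 and Oxct1 carry dots in the 3 comparisons that set a fasted group against a fed one.

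Outside the 38 genes, 81 genes of the same pathways were listed for comparison and 66 were tested. In ADF against Vehicle, 1 was called higher (Lipe) and 5 lower, where 4.05% and 4.96% of all tested genes were. In ADF+ENZ against ENZ 1 was called, where 1.09% of all tested genes were. It was Pnpla2, the main triglyceride lipase, higher (log2 0.69, SE 0.132, edgeR adjusted p = 0.022). In ADF+ENZ against Vehicle, 1 was higher (Abhd5, the activator of Pnpla2, log2 0.41, adjusted p = 0.0145) and 10 were lower. Of all tested genes, 5.97% were called higher and 6.53% lower in that comparison. Acsl3, an acyl-CoA synthetase of lipid droplets and membranes, was lower than in Vehicle in ADF+ENZ, ADF and ENZ alike (log2 -0.93, -0.97 and -0.69, adjusted p = 0.00122, 0.00134 and 0.0136). So was Acadsb, which oxidises short branched chains (log2 -0.40, -0.33 and -0.41).

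Fabp5, a fatty acid binding protein, was lower in ADF (log2 -1.25) and in ADF+ENZ (log2 -1.06) than in Vehicle. Lpin1, a phosphatidate phosphatase and coactivator, was lower in ADF+ENZ (log2 -0.57) and in ENZ (log2 -0.75) than in Vehicle. In ADF+ENZ against Vehicle, other genes called lower included Pcca, a subunit of propionyl-CoA carboxylase (log2 -0.56), Plin3 (log2 -0.33) and Lpl, lipoprotein lipase (log2 -1.13). In ADF+ENZ against ADF, 3 were called higher (Abhd5, Echdc2 and Amacr) and 5 lower (among them Slc27a3, Lipe, Pcca and Acad12), and no gene of the 66 was called in the interaction. Of all tested genes, 8.72% were called higher and 7.54% lower in ADF+ENZ against ADF, and 3.1% were called in the interaction. In ENZ against Vehicle, none was higher and 3 were lower (Lpin1, Acsl3 and Acadsb), where 1.81% and 3.62% of all tested genes were.

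Targets that PPAR-alpha induces in fasted liver were low in all tumours. Of 7 such genes, Cyp4a10, Cyp4a14 and Fabp1 had no count in any library, and 1, Pdk4, passed the filter for testing. Pdk4, which slows glucose oxidation, averaged 0.964 ± 0.593 CPM in ADF+ENZ, 0.677 ± 0.465 in ADF, 0.104 ± 0.0845 in ENZ and 0.353 ± 0.262 in Vehicle (SD, n = 4 each), and was not called in ADF+ENZ against ENZ (log2 3.23, adjusted p = 0.0765) or in ADF against Vehicle (log2 0.96, adjusted p = 0.41). Ppara itself did not pass 0.457 CPM.

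Over the 6 comparisons, 17 of 210 gene and comparison pairs among the members were called, from 9 genes. Shares called are given for members, then for all tested genes. In ADF against Vehicle, with 4 of 35 members called, the share was near that of all genes (11.4%, 9.01%). Members were called more often in ADF+ENZ against Vehicle (20%, 12.5%) and ADF+ENZ against ENZ (8.57%, 1.09%). They were called less often in ENZ against Vehicle (2.86%, 5.43%), ADF+ENZ against ADF (5.71%, 16.3%) and the interaction (0%, 3.1%). The difference between these shares was not tested. Of the 17 pairs, 7 kept the call in all other settings and with each library left out, those of Ucp2 in 3 comparisons and of Cpt1a, Oxct1, Eci2 and Acaa1a in ADF+ENZ against Vehicle. None of the 17 changed sign.

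**Figure D5:**
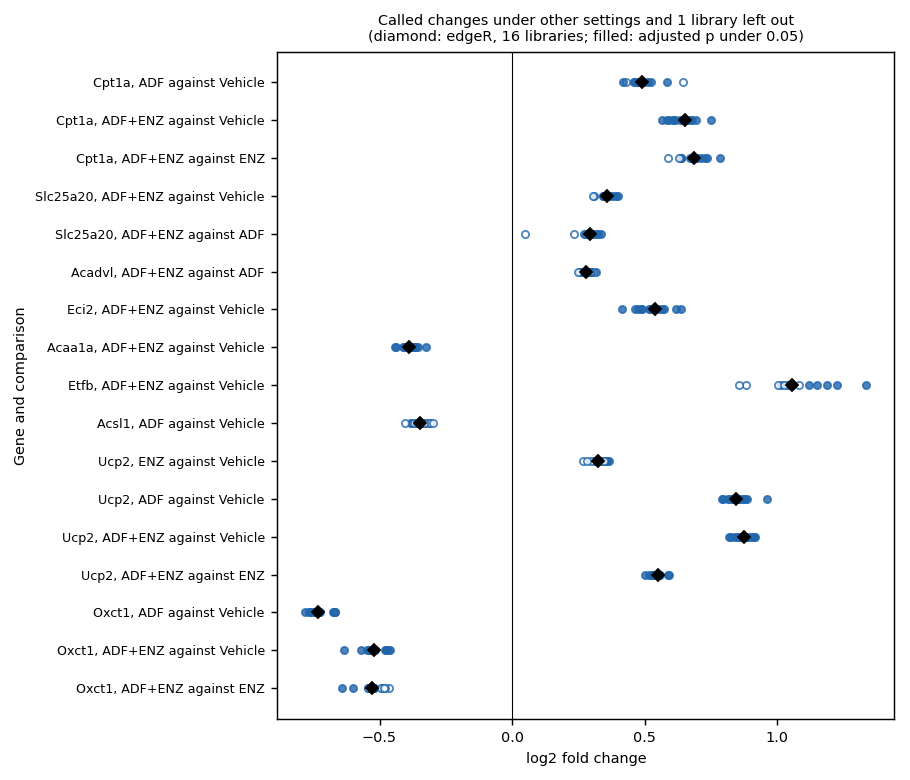
Log2 fold change of the called gene and comparison pairs under the other settings and with 1 library left out at a time; the diamond is the value with edgeR and 16 libraries, and filled symbols mark an adjusted p under 0.05. All symbols of a pair lie on 1 side of 0, and open symbols mark settings in which the call was lost.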

How the data were processed

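Total RNA of 16 tumours was sequenced paired-end, and the authors deposited raw counts for each gene and library. Per the submitters' processing notes, the tools were Trim Galore, HISAT2, featureCounts and DESeq2 and the builds mm39 and GRCh38, with no versions and no role for each. Strand setting and annotation release: not given in the sources used here. Deposited values were whole numbers and were used as counts. Besides 55414 gene IDs the table has 5 entries for reads outside genes, which stayed out of library sizes and tests. Symbols and exon lengths came from GENCODE M21 on GRCm38, an earlier build than mm39 (52081 IDs matched; IDs without a symbol held 3.51% of counts), and promoter windows from RefSeq (GRCm38.p6; 33 of 38 members are in that table).

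The test was edgeR's robust quasi-likelihood F test (edgeR 4.0.16, R 4.3.3). A single model held the 16 libraries, scaled by TMM, after filterByExpr (minimum count 10, total 15). Each of 5 pairwise comparisons and the interaction was adjusted by Benjamini-Hochberg over 18946 genes, and SE was the log2 fold change over the square root of F. Differences between replicates exceeded counting error (chi-square per degree of freedom 5.79 to 38.6 in 24 pairs), and floors of 3 counts cover counting error only. The alternatives were DESeq2 size factors, DESeq2 1.42.0, limma-voom with quality weights (limma 3.58.1), no filter (37369 genes), a stricter filter of 1 CPM in 4 libraries (17042 genes), the 2 groups alone, a skeletal muscle covariate, a no-feature covariate, and each library left out. The pipeline was tested on simulated data. The members, gene lists, named genes and settings were chosen with earlier results of these data known. Named members were those called in any comparison and a set chosen by role; of each other list, up to 3 called per comparison were given by smallest p. A few listed genes are not reported here. Acaa1b was named after its values were seen. Figures were drawn with matplotlib 3.10.9 (Python 3.11.15).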

Additional observations from a re-analysis of the deposited data

Results flagged for a closer look

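In 152 groups of 4 libraries, 38 genes in 4 groups each, 5 libraries stood apart from the other 3 of their group by Dixon's criterion for 4 values, where chance alone gives about 1 in 20 groups. Slc25a20 was at 32.2 CPM in ENZ replicate 2, above the other 3 ENZ libraries at 27.5 to 28.2. Acadm was at 46.2 CPM in ADF+ENZ replicate 1, above the other 3 at 44.1 to 44.4. Decr1 was at 24.3 CPM in ADF replicate 1, below the other 3 at 27.9 to 28.0. Acox3 was at 41.2 CPM in Vehicle replicate 1, below the other 3 at 46.6 to 47.0. Acsl1 was at 15.1 CPM in ADF+ENZ replicate 2, below the other 3 at 19.9 to 20.6.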

How the results depend on the processing

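No called member changed sign in any setting. With the no-feature share as a covariate, members called fell to 1 in ADF against Vehicle and 0 in ADF+ENZ against ADF, and genes called over the whole table fell to 6 (against 1707), 0 (3081), 0 in the interaction (587), 43 in ADF+ENZ against ENZ (206) and 1579 in ADF+ENZ against Vehicle (2369); since ADF and this share cannot be told apart, the cause was not tested. DESeq2 called 7 members in ADF against Vehicle, 5 in ADF+ENZ against ENZ and 1 in the interaction, and 1594 genes in ENZ against Vehicle, 693 in ADF+ENZ against ENZ and 1363 in the interaction. Limma-voom called 1655 genes in ENZ against Vehicle (1028 in edgeR). With only the 2 groups compared, members called were 0 in ENZ against Vehicle and 1 (Cd36) in ADF+ENZ against ADF, and 54 genes were called in ADF+ENZ against ENZ. The skeletal muscle covariate left 0 members in ENZ against Vehicle, and no filter left 0 in ADF+ENZ against ADF. The cause of these shifts was not tested.

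With each library left out, members called ran from 0 to 1 in ENZ against Vehicle, 2 to 5 in ADF against Vehicle (2 without Vehicle replicate 2), 6 to 8 in ADF+ENZ against Vehicle, 1 to 3 in ADF+ENZ against ENZ (1 without ENZ replicate 3 or ADF+ENZ replicate 3), 0 to 2 in ADF+ENZ against ADF (0 without ADF replicate 4 or ADF+ENZ replicate 1, 2 or 3, and 1 without ADF replicate 3) and 0 to 0 in the interaction. Genes called over the whole table ran from 403 to 1194 in ENZ against Vehicle (moved most without Vehicle replicate 3 and ENZ replicates 2, 3 and 4), 610 to 1862 in ADF against Vehicle (Vehicle replicates 2 and 3, ADF replicates 3 and 4), 1202 to 2286 in ADF+ENZ against Vehicle (Vehicle replicates 3 and 4, ADF+ENZ replicate 3), 20 to 358 in ADF+ENZ against ENZ (every library but ADF+ENZ replicate 4), 1197 to 3403 in ADF+ENZ against ADF (ADF replicates 3 and 4, ADF+ENZ replicates 1 and 3) and 148 to 908 in the interaction (every library but Vehicle replicates 1 and 4, ENZ replicate 1, ADF replicate 1 and ADF+ENZ replicate 4). No paired analysis was possible because the labels give no replicate numbers shared between groups. Low counts limit Cpt1b, Bdh1, Ppargc1a and Etfb.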

Other observations

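The Vehicle tumours differed among themselves in a way that runs through several members. Replicates 1 and 3 were above replicates 2 and 4 in Cd36, Plin2, Angptl4, Cpt1a and Cpt1c, a set picked after its values were seen. The order was not particular to that set. It was also found in Acadl, Acadm, Acad9, Hadh, Acaa2, Decr2, Slc22a5, Etfa, Etfdh and Acot2. Cpt1a was at 221, 180.3, 247 and 177 CPM in Vehicle replicates 1 to 4, Angptl4 at 86.5, 51.4, 125 and 55.9, Plin2 at 211, 123, 328 and 140.5 and Cpt1c at 17.2, 10.2, 12.2 and 10.4. Ucp2 ran the other way, with 143, 168, 149.6 and 171 CPM, so its 2 lowest Vehicle tumours were the ones highest in Cd36. Oxct1, at 181, 222, 194 and 193 CPM, did not follow either order.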
